A study of Mus musculus with 8 samples.

Results

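Asxl2 knockout (KO) and wild-type (WT) blood progenitors of young mice were compared in 4 libraries, 2 of each genotype, out of 8 libraries in the series. The members were taken from the labels alone: young mice labelled Asxl2 KO or Asxl2 WT, 8 to 12 weeks old. They come from 2 litters, each with 1 KO and 1 WT library, here litter 3 and litter 4. The 4 remaining libraries are the same genotypes in old mice, over 1 year of age, from litters 1 and 2. Nothing in the labels gives the knockout allele, the strain, the sex or whether a library was 1 animal, and no treatment is named. Litter 3 belongs to batch 1 and litter 4 to batch 2, so that in young mice the litters and the batches cannot be told apart.

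The cells were LSK cells, marrow cells without lineage markers but with Sca1 and Kit on their surface. This gate holds the blood stem cells and the multipotent progenitors just below them. Asxl2 encodes a scaffold protein that binds the deubiquitinase Bap1, which removes ubiquitin from histone H2A. That mark is placed by Polycomb repressive complex 1, so that Asxl proteins and Polycomb complexes act on the same chromatin. In mouse marrow, Asxl2 is known for a part in keeping stem cells able to renew and in myeloid differentiation.

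The question of this comparison was which RNAs differ between KO and WT progenitors before ageing, and which of these differences were seen in each litter on its own. Gkn3 and Ccl9 were higher and Mmrn1 and Fhl1 lower in KO in both litters. Their promoters are shown because these 4 genes are among those that carry the comparison. Each runs 5′ to 3′ on the gene's strand, from 250 bases before to 50 bases after the RefSeq start (mouse build GRCm38.p6). Capitals mark matches on either strand to 1 of 2 motifs. The core that Runx factors bind was searched as TGTGGT. The site of erythroid and stem cell factors of the GATA family was searched as AGATAA. They are Gkn3 (chr6:87388886-87389185, minus strand), Ccl9 (chr11:83578587-83578886, minus), Mmrn1 (chr6:60944067-60944366, plus) and Fhl1 (chrX:56786277-56786576, plus).
Gkn3: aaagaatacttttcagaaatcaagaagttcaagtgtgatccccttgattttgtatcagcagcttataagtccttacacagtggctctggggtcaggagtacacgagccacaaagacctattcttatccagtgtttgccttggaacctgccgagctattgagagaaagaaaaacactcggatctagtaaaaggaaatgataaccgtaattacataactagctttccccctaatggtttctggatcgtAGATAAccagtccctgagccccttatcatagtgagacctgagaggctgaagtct
Ccl9: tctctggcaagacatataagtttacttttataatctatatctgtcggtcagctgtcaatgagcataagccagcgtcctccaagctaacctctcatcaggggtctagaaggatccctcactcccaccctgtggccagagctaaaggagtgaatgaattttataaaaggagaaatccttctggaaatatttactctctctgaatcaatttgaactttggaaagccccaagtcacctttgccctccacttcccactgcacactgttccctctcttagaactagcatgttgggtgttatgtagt
Mmrn1: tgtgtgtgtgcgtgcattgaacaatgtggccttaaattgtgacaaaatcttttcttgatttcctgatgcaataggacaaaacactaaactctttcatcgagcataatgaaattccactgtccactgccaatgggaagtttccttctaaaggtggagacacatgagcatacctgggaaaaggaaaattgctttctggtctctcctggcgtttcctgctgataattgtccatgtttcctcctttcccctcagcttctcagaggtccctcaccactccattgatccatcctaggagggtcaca
Fhl1: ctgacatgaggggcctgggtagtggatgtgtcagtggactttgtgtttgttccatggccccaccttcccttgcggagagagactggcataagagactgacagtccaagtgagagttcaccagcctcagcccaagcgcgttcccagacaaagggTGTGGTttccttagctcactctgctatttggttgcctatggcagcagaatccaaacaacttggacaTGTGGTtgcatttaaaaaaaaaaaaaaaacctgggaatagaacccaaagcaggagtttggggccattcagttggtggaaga
The Gkn3 promoter holds 1 GATA match and that of Fhl1 2 Runx matches, while no match lies in the other two windows. Of 32851 RefSeq promoters of this length, 16.8% hold the Runx letters and 11.2% the GATA letters, and no match of one motif overlapped the other. RefSeq promoters were found for 11 of the genes that passed the test, 16 windows in all. Among these 16 windows, 4 hold a Runx match and 2 a GATA match. A larger set was 81 windows of 58 named protein-coding genes of at least 5 TPM, 2-fold lower in KO in both litters. Of these 81, 14.8% hold a Runx match and 6.17% a GATA match. A further Fhl1 start (chrX:56779433-56779732) holds neither.

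The libraries held 59897928 (KO) and 61238010 (WT) estimated counts in litter 4 and 72105052 and 80388500 in litter 3. RNA of the gate's own genes was present in each: Kit, the stem cell factor receptor, measured 133 to 547 TPM, a level scaled for transcript length and for depth. Ly6a, which encodes Sca1, measured 150 to 304 TPM. The highest Kit level was in the WT library of litter 4. That library also stood apart on the leading principal component of all 8 libraries, which held 52.9% of the variance, at 147.5 against -10.6 to 78.3 for the other young libraries. The WT libraries of the 2 litters differed by a chi-square of 263.9 per degree of freedom, against 86.05 for the 2 KO libraries. Xist RNA was near 0 in the young libraries (0.016 to 0.0612 TPM).

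Asxl2 RNA checked the genotype labels. Asxl2 (ENSMUSG00000037486, chromosome 12, 3426857 to 3506852) measured 23.7 and 30.8 TPM in the WT libraries of litters 3 and 4. It measured 5.63 and 4.63 TPM in their KO littermates. The KO libraries were the 2 low ones, without overlap. The log2 difference, KO over WT, was -1.99 in litter 3 and -2.63 in litter 4. In edgeR's quasi-likelihood test it fell by 2.32 (SE 0.256, adjusted p = 0.0079), and with litter as a block the adjusted p was 0.0632. Transcripts of the gene were unequally low. Most of its level came from the 1483-base protein-coding transcript ENSMUST00000144247, at 4.46 and 3.34 TPM in KO and 17.1 and 17.29 TPM in WT, in litters 3 and 4. The 4462-base protein-coding transcript ENSMUST00000153102 was at 0.232 and 0 TPM in KO and 3.74 and 4.96 TPM in WT. The 8887-base transcript ENSMUST00000111215 was at 0.441 and 0.359 TPM in KO and at 0.935 and 1.76 TPM in WT. The longest, ENSMUST00000092003, was scarce in both genotypes (0.0555 and 0.167 TPM in KO, 0.116 and 0.269 TPM in WT), and in the old litters it was higher in KO.

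Neither the paralogs nor Bap1 passed the test. Asxl1, the paralog most often mutated in blood cancers, differed by 0.28 in litter 3 and -0.88 in litter 4, opposite ways (14.4 against 12.7 TPM and 12.0 against 22.8 TPM, KO against WT). Bap1 measured 87.6 and 74.6 TPM in KO and 103 and 152 TPM in WT (edgeR log2 -0.55, SE 0.212, adjusted p = 0.505). Asxl3 stayed under 0.3 TPM in each young library. Of 12 genes for Asxl proteins and the Bap1 complex, 5 were lower and 2 higher in KO in both litters, and Asxl2 alone was 2-fold apart in both. Their median log2 difference was 0.12 in litter 3 and -0.74 in litter 4, against -0.02 and 0.11 for all genes tested. Their transcripts are long, with a median effective length of 3557 bases. Named protein-coding genes of at least 5 TPM and about that length (median 3490 bases) stood at -0.01 and -0.83, so the list's median in litter 4 lies near theirs.

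Few genes passed the test in young mice, and nearly all of them were lower in KO. Of 25543 genes tested, 16 passed at an adjusted p under 0.05 (0.0626%), 14 lower (0.0548%) and 2 higher (0.00783%). An unadjusted p under 0.05 was reached by 2416. Besides Asxl2, the lower genes included regulators of transcription (Eya1, Pbx3), matrix and membrane proteins (Mmrn1, Col1a2, S1pr1, Epb41l5), signalling and LIM-domain proteins (Chn2, Arhgap29, Fhl1) and enzymes (Gpx3, Msrb3, Cma1). The higher genes were Gkn3 and Ccl9. In each of these genes both litters showed the same direction, and the 2 KO libraries did not overlap the 2 WT libraries. The genes were called on these same libraries, so this describes them and is no separate support. For a single gene, such a separation has a p of 0.333 in an exact two-sided permutation test. The remaining gene, the antibody segment Ighv7-1, did not hold in both litters: it measured 436 TPM in the WT library of litter 3 and 0 in the other young libraries.

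**Figure D1:**
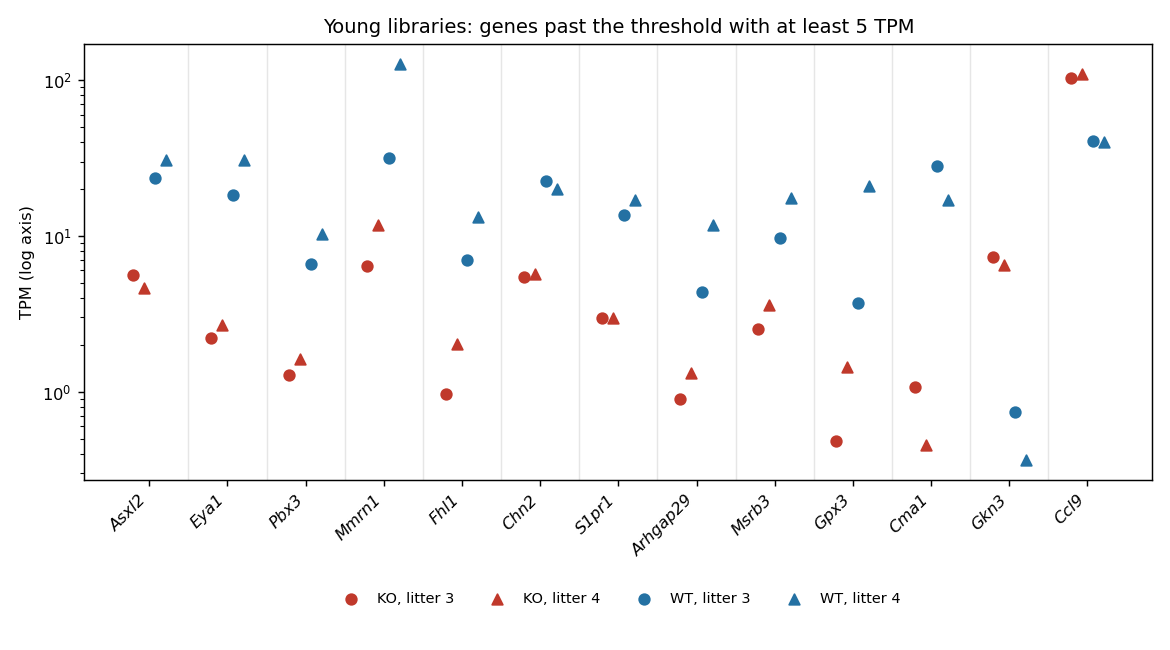
Level of 13 protein-coding genes past the threshold in each young library, in TPM on a log axis. Red marks are KO and blue marks WT, with circles for litter 3 and triangles for litter 4. For each of the first 11 genes both red marks lie below both blue marks, and for Gkn3 and Ccl9 above.

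Regulators of transcription were led by Eya1, a coactivator with phosphatase activity that pairs with sine oculis homeobox factors (ENSMUSG00000025932, chromosome 1, 14168954 to 14310235). Eya1 measured 18.4 and 30.9 TPM in WT and 2.22 and 2.69 TPM in KO, in litters 3 and 4. The KO libraries were the 2 low ones, at log2 differences of -2.92 and -3.49. In edgeR's test it fell by 3.22 (SE 0.289, adjusted p = 0.00385), and the call held with litter as a block (adjusted p = 0.0353). Its paralog Eya2, named here after its values were seen, measured 50.3 and 59.2 TPM in KO and 74.8 and 98.3 TPM in WT, at -0.56 and -0.62, and did not pass. Of 10 Eya, sine oculis homeobox and Dach genes, 5 were lower and 2 higher in KO in both litters. Eya1 and the scarce Eya4 were the 2 members at least 2-fold lower in both.

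Pbx3, a homeodomain partner of Hox proteins (ENSMUSG00000038718, chromosome 2, 34171457 to 34373142), measured 6.64 and 10.2 TPM in WT and 1.28 and 1.62 TPM in KO. The litters differed little, at -2.33 and -2.59. In edgeR's test Pbx3 fell by 2.47 (SE 0.308, adjusted p = 0.0146, and 0.0788 with the litter block). Of 25 Hox, Pbx, Meis and Pknox genes tested, 12 were lower and 4 higher in both litters. By any amount, 26.1% of all genes tested were lower and 27.9% higher in both. Of 9828 named protein-coding genes with at least 5 TPM in the higher young group, here called expressed genes, 40.6% were lower and 24.8% higher in both, so the count of 12 of 25 is not far from the general share. The list counts over both litters are to be read against these shares. Meis3, a related homeodomain gene, was the other member 2-fold lower in both. It measured 2.23 and 1.97 TPM in KO and 4.98 and 5.66 TPM in WT, and it did not pass (edgeR log2 -1.35, adjusted p = 0.477).

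Of the called genes, Mmrn1, S1pr1, Col1a2 and Epb41l5 act at the matrix or the membrane. Mmrn1, a multimerin stored in platelets and made by stem cells (ENSMUSG00000054641, chromosome 6, 60924976 to 60989378), measured 31.4 and 127 TPM in WT and 6.37 and 11.8 TPM in KO. It was high in WT of litter 4 above all, and within that litter it was -3.38 against -2.22 in litter 3. In edgeR's test Mmrn1 fell by 2.81 (SE 0.315, adjusted p = 0.0079, and 0.0632 with the litter block). S1pr1, the receptor for sphingosine 1-phosphate that guides cells out of marrow and lymph nodes, measured 13.6 and 16.9 TPM in WT. It was at 2.99 and 2.95 TPM in KO, nearly equal in the 2 litters. S1pr1 fell by 2.26 in edgeR's test (SE 0.265, adjusted p = 0.00923). Col1a2, a collagen chain, was scarce, at 1.85 and 4.42 TPM in WT and 0.324 and 0.373 TPM in KO, and fell by 3.23 in edgeR's test (adjusted p = 0.0474). The band 4.1 family gene Epb41l5 also fell (edgeR log2 -2.26, adjusted p = 0.0446), at 3.46 and 5.45 TPM in WT and 0.73 and 2.39 TPM in KO. Col1a2 and Epb41l5 have a mean under 5 TPM in WT, the higher young group. Col1a2 is named as a member of the stroma and endothelium list, and Epb41l5 after its values were seen.

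Signalling and LIM-domain genes formed a further part of the lower group. Chn2, a chimaerin that switches off the GTPase Rac, measured 22.4 and 19.9 TPM in WT and 5.46 and 5.70 TPM in KO. WT and KO were each nearly equal in the 2 litters, and Chn2 fell by 2.09 in edgeR's test (SE 0.272, adjusted p = 0.02). Arhgap29, a GTPase-activating protein, measured 4.38 and 11.7 TPM in WT and 0.896 and 1.32 TPM in KO (edgeR log2 -2.84, adjusted p = 0.0222). Fhl1, a LIM-domain gene, measured 7.03 and 13.3 TPM in WT and 0.962 and 2.01 TPM in KO. Its differences were alike in the 2 litters, -2.62 and -2.53, and it fell by 2.59 in edgeR's test (SE 0.296, adjusted p = 0.00825).

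Enzymes made up the rest. Gpx3, a secreted glutathione peroxidase, measured 3.70 and 20.9 TPM in WT and 0.48 and 1.45 TPM in KO (edgeR log2 -3.74, SE 0.507, adjusted p = 0.0222). Msrb3, which repairs oxidised methionine, measured 9.63 and 17.5 TPM in WT and 2.54 and 3.57 TPM in KO (edgeR log2 -2.12, adjusted p = 0.0302). In both enzymes WT of litter 4 was the high library. Cma1, a chymase of mast cell granules (ENSMUSG00000022225, chromosome 14, 55941451 to 55944675), measured 28.2 and 16.9 TPM in WT and 1.07 and 0.456 TPM in KO. Here the WT library of litter 3 was the higher one. In edgeR's test Cma1 fell by 4.80 (SE 0.504, adjusted p = 0.0079), and the call held with the litter block (adjusted p = 0.0353).

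The higher genes were fewer. Gkn3, a gastrokine gene known from the stomach and from arterial endothelium (ENSMUSG00000030048, chromosome 6, 87383256 to 87388935), measured 0.743 and 0.365 TPM in WT and 7.33 and 6.46 TPM in KO. It was near the floor in both WT libraries, and its differences were 3.28 and 3.96. By edgeR's test Gkn3 rose by 3.67 (SE 0.483, adjusted p = 0.02). With litter as a block its adjusted p was 0.0632. Ccl9, a chemokine of myeloid cells (ENSMUSG00000019122, chromosome 11, 83572919 to 83578636), measured 40.4 and 39.9 TPM in WT and 103 and 109 TPM in KO. The 2 libraries of each genotype lay close together, 40.2 ± 0.353 TPM in WT and 106 ± 4.18 TPM in KO (SD, n = 2). By edgeR's test Ccl9 rose by 1.45 (SE 0.199, adjusted p = 0.0239), and under the litter block the adjusted p came to 0.0904. The lysosomal glycoprotein gene Cd68 just missed the threshold, at 78.2 and 89.0 TPM in KO and 31.0 and 27.3 TPM in WT (edgeR log2 1.53, adjusted p = 0.0506).

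These calls rest on single libraries and on the model. With litter as a block 3 genes passed (Eya1, Cma1 and Ighv7-1), and the other 13 had adjusted p of 0.0632 to 0.185. DESeq2's Wald test called 391 genes, edgeR without a filter on low counts 421, and limma on log2(TPM + 1) none (2284 at an unadjusted p under 0.05). Without the WT library of litter 3 the count was 1271. Without that of old WT mice of litter 2, which only informs the spread and the batch term, it was 0 (2752 at an unadjusted p under 0.05), and the 15 genes other than Ighv7-1 had adjusted p of 0.0588 to 0.191. Asxl2, Eya1, Mmrn1, S1pr1 and Cma1 passed without any other single library. Without the KO library of litter 4, Pbx3 (0.0568), Ccl9 (0.0519), Chn2 (0.0764), Arhgap29 (0.0705), Msrb3 (0.166), Epb41l5 (0.0657) and Col1a2 (0.125) missed the threshold in edgeR's adjusted p. The KO library of litter 3 decided Pbx3 (0.0558), Fhl1 (0.0558), Gpx3 (0.0558), Chn2 (0.0578), Ccl9 (0.0752), Epb41l5 (0.117) and Col1a2 (0.0752). The WT library of litter 4 decided Gkn3 (0.0853), Ccl9 (0.0962), Arhgap29 (0.0759), Msrb3 (0.0822), Gpx3 (0.198), Epb41l5 (0.0818) and Col1a2 (0.251). With 2 libraries against 2, an exact two-sided permutation test of a single gene cannot go below 0.333.

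The next question was how many changes of at least 2-fold were seen in each litter on its own. Of the 9828 expressed genes, 13 were higher (0.132%) and 76 lower (0.773%) in KO in both litters. Litter 3 alone had 38 such genes higher (0.387%) and 130 lower (1.32%), and litter 4 alone had 62 higher (0.631%) and 1195 lower (12.2%). As a share of each list, the 76 genes were 58.5% of those lower in litter 3 and 6.36% of those lower in litter 4. Opposite differences of 2-fold were rarer than shared ones: 13 genes (0.132%) were lower in litter 3 and higher in litter 4, and 1 (0.0102%) the other way. This did not extend to the low genes: of all 25543 tested, 824 (3.23%) were 2-fold higher and 367 (1.44%) 2-fold lower in both litters, while 1201 (4.7%) were lower in litter 3 and higher in litter 4 and 110 (0.431%) the reverse. Across the 9828 genes the 2 litters had a Pearson correlation of 0.385 and a Spearman correlation of 0.371. Genes are not independent replicates, and the litters share no library.

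**Figure D2:**
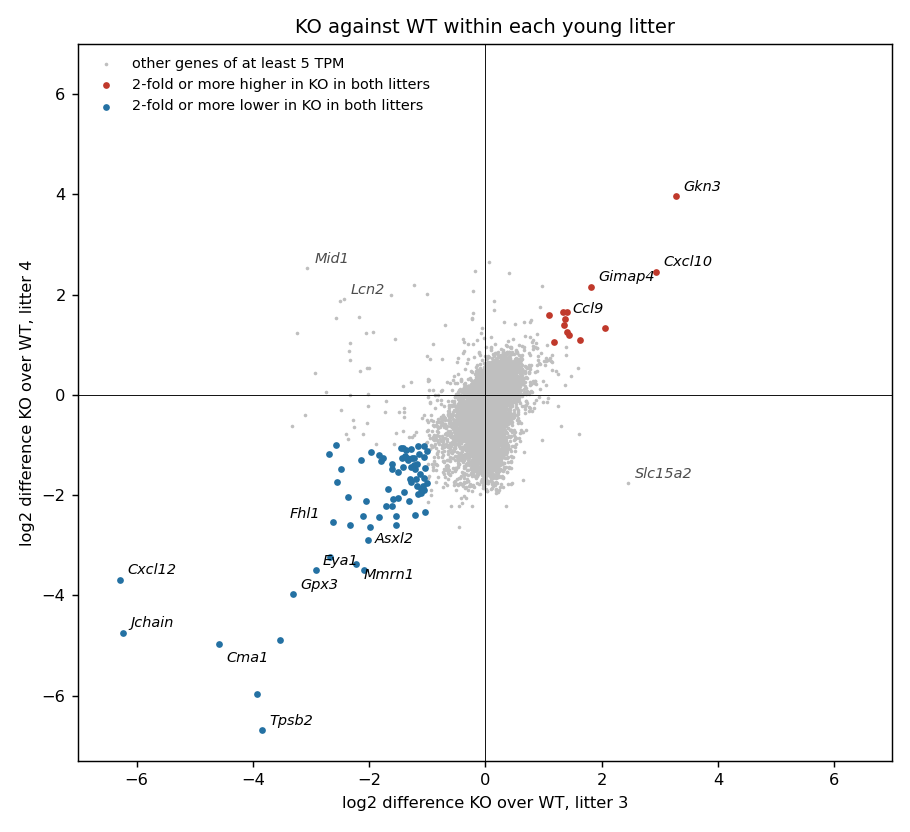
Log2 difference KO over WT in litter 3 (horizontal) and litter 4 (vertical) for named protein-coding genes of at least 5 TPM, 1 point a gene. Red and blue points are the 13 genes higher and the 76 genes lower by 2-fold or more in both litters; the grey cloud reaches further down in litter 4 than to the left in litter 3.

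Among the 13 genes higher in both litters, 2 passed (Gkn3 and Ccl9) and all 13 had an unadjusted p under 0.05 in edgeR's test. Of all 25543 genes tested, 2416 had one. The 13 were chosen on these same libraries, so their p-values describe them and are no separate support. Products of myeloid or inflammatory cells were among the 13. Cxcl10, an interferon-induced chemokine, measured 9.39 and 6.15 TPM in KO and 1.29 and 1.19 TPM in WT. Clec10a, a lectin of macrophages and dendritic cells, measured 13.6 and 12.3 TPM in KO and 7.09 and 4.99 TPM in WT. Lgals1, a galectin, was at 140 and 85.9 TPM in KO and 55.3 and 39.2 TPM in WT. In these 3 genes both KO libraries lay above both WT libraries, and none passed the adjusted threshold (edgeR adjusted p = 0.129, 0.384 and 0.235).

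Stem and lymphoid cell genes were also among them. Slamf1 encodes CD150, a surface marker of stem cells, and measured 10.9 and 14.5 TPM in KO and 3.72 and 7.49 TPM in WT (edgeR adjusted p = 0.173). Gimap4, a GTPase gene of lymphocytes, measured 31.6 and 39.7 TPM in KO and 9.40 and 9.19 TPM in WT (edgeR adjusted p = 0.368). The tight junction gene Cldn5 was at 16.0 and 10.6 TPM in KO and 4.03 and 4.48 TPM in WT. The actin-binding Dbn1 was at 6.89 and 6.77 TPM in KO and 2.87 and 2.81 TPM in WT. Ly6k, Sh3gl3 and Phlda2, with Cd68, completed the 13, and their log2 differences within a litter were 1.06 to 1.65.

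The 76 lower genes held 11 that passed, and 73 had an unadjusted p under 0.05 in edgeR's test. These genes too were chosen on the same libraries, so the count of 73 is no separate support. The 5 named next had some of the largest differences. Jchain, which joins antibody chains in plasma cells, measured 75.1 and 49.4 TPM in WT and 0.555 and 0.984 TPM in KO (edgeR log2 -5.59, adjusted p = 0.173). Cxcl12, the stem cell chemokine made by marrow stroma, measured 7.78 and 7.98 TPM in WT and 0.0503 and 0.581 TPM in KO (adjusted p = 0.083). Mcpt4, a mast cell protease, measured 9.33 and 4.74 TPM in WT and 0.715 and 0.0956 TPM in KO (adjusted p = 0.372). The tryptase Tpsb2 was at 38.1 and 24.2 TPM in WT and 2.47 and 0.17 TPM in KO (adjusted p = 0.0591), but its close copy Tpsab1 can share its reads. Rps12, a ribosomal protein gene, was at 2.79 and 12.9 TPM in WT and listed near 0 in both KO libraries (-3.93 and -5.97 in litters 3 and 4). It was also listed at 0 in the old WT library of litter 2, and its pseudogene copies can share its reads.

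The same genes were then looked up in the old litters, which share no library with the young ones. All 13 higher genes were also higher in KO in both old litters, where 18.4% of the 9828 genes were (5 of the 13 by 2-fold, against 0.499%). Of the 76 lower genes, 68 (89.5%) were lower in both old litters, against 57.4% of the 9828 genes. By 2-fold in both old litters, 44 of the 76 were lower (57.9%), against 1.99%. In edgeR's old comparison 4 of the 13 and 24 of the 76 passed. It called 0.65% of all 25543 genes tested, low ones included, and the share among the 9828 is not given here. Asxl2, Eya1, Pbx3, Mmrn1, Chn2, S1pr1 and Msrb3 had log2 differences of -1.64 or below in each of the 4 litters. Gkn3 was higher by 3.28 to 4.30 in the 4 litters, and its KO level was 6.46 and 7.33 TPM in young and 26.3 and 54.0 TPM in old mice. In the old litters Slamf1 stood at 0.51 and 0.17 and Cma1 at -1.97 and -1.51, nearer to 0 than in young mice, and neither passed as an interaction (edgeR adjusted p = 1). The single call of the genotype by age interaction (0.00391% of genes) was Ighv7-1.

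Gene lists were described by their members' counts and medians. Erythroid genes, for globins, heme synthesis and the red cell membrane, were mostly lower in KO: of 25, 16 were lower and 3 higher in both litters, and 8 were 2-fold lower in both, against 1.44% of all genes tested. Their median log2 difference was -1.73 in litter 3 and -0.79 in litter 4. None passed. Hba-a2, an alpha globin gene with a near-identical copy, measured 273 and 522 TPM in WT and 49.1 and 122 TPM in KO. The band 3 anion exchanger Slc4a1 measured 1.79 and 8.83 TPM in WT and 0.258 and 1.38 TPM in KO. Hbb-bt went the other way, at 93.4 and 102 TPM in WT and 119 and 132 TPM in KO. Klf1, the erythroid transcription factor, was at 25.8 and 19.5 TPM in WT and 7.31 and 14.4 TPM in KO. In bulk RNA, fewer cells of a type and less RNA per cell cannot be told apart.

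Mast cell, basophil and eosinophil genes were also more often lower than higher. Of 19, 11 were lower and 1 higher in both litters, and Cma1 passed. Among the 19, 7 were 2-fold lower in both, against 1.44% of all genes tested. The list's median was -1.48 in litter 3 and -0.79 in litter 4. The basophil protease Prss34 measured 63.2 and 78.8 TPM in WT and 9.25 and 32.8 TPM in KO. Their summed level was 3235 and 2284 TPM in WT and 2089 and 2262 TPM in KO. It was lower in KO by a clear margin in litter 3 and near equal in litter 4. Of 13 stroma and endothelium genes, 9 were lower and 1 higher in both litters. Among these 13, 4 were 2-fold lower in both, against the same 1.44%. B cell genes were divided: of 14, 6 were lower and 4 higher in both litters, and the 2 that were 2-fold lower in both, Jchain and Iglc2, encode antibody parts. What these cells contribute to the differences of single genes was not tested.

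**Figure D3:**
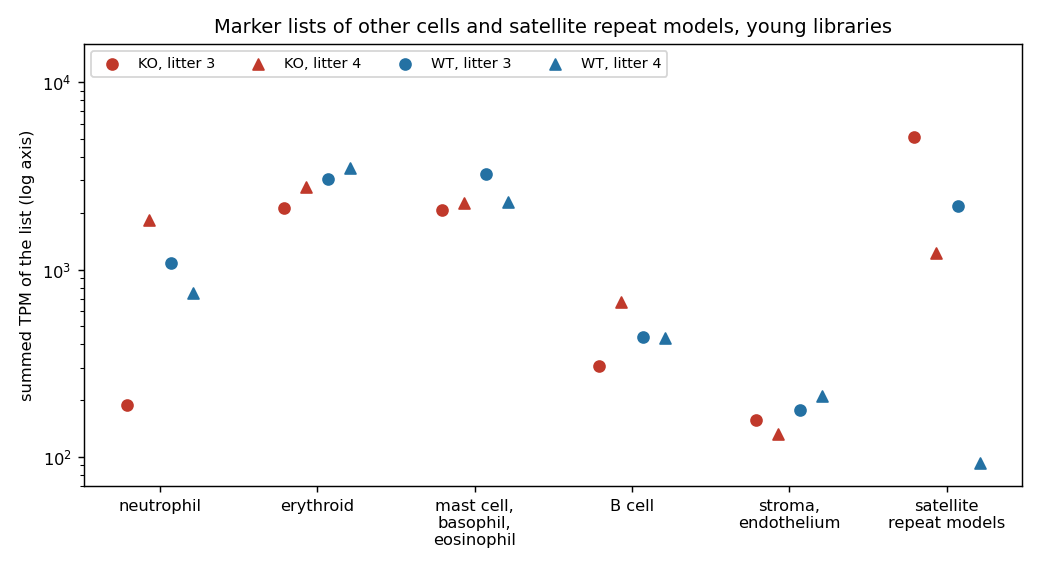
Summed TPM of 5 marker lists and of 12 satellite repeat gene models in each young library, on a log axis. Red marks are KO and blue marks WT, with circles for litter 3 and triangles for litter 4. Neutrophil genes are low in KO of litter 3 and high in KO of litter 4, and satellite models are higher in KO within each litter.

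Mature neutrophil genes went opposite ways in the 2 litters. Their median was -2.25 in litter 3 and 1.17 in litter 4, and their summed level was 189 against 1086 TPM and 1836 against 753 TPM, KO against WT. Of 14, 3 were lower in both litters, none was higher in both and 11 were opposite. Single genes opposed between litters 3 and 4 included the neutrophil proteins Lcn2 (-2.44 and 1.90), Chil3 (-2.51 and 1.88) and Camp (-2.17 and 1.55). Mid1, a ubiquitin ligase gene and no neutrophil gene, was further apart, at -3.07 and 2.52, with 2.30 against 19.7 TPM and 11.4 against 2.14 TPM. The X-linked Xlr3b stood at -1.63 and 1.99. In the other direction Slc15a2, a peptide transporter gene, stood at 2.45 and -1.76, although its TPM in litter 3 were 2.96 in KO and 2.67 in WT. None of these is a change that holds in both litters.

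Myeloid genes were likewise mixed. Of 19 myeloid progenitor genes, 8 were lower and 6 higher in KO in both litters. Elane, neutrophil elastase, measured 862 and 510 TPM in WT and 136 and 240 TPM in KO, and it was the only member 2-fold apart in both. Plac8 measured 351 and 264 TPM in WT and 424 and 496 TPM in KO, and the granule gene Nkg7 339 and 287 TPM in WT and 555 and 565 TPM in KO. Of 18 macrophage, monocyte and dendritic genes, 4 were higher and 5 lower in both. Cd68 was 2-fold higher in both litters. Ms4a6c, at 26.7 and 27.6 TPM in KO and 12.7 and 15.5 TPM in WT, was close to it. F13a1, a clotting factor chain of monocytes, was 2-fold lower in both, at 3.07 and 4.18 TPM in KO and 7.59 and 11.9 TPM in WT.

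Stem cell genes showed no shared direction in the 2 litters. Of 25 stem cell identity genes, 9 were lower and 6 higher in KO in both, and their median was 0.10 in litter 3 and -0.63 in litter 4. Their median effective length was 2634 bases. Expressed genes of similar length (medians 2507 and 2922 bases) stood at -0.09 and -0.05 in litter 3. In litter 4 such genes stood at -0.45 and -0.64, near the list's median. Slamf1 was the only member 2-fold apart in both. Fgd5, a marker of stem cells, measured 6.66 and 14.7 TPM in WT and 5.63 and 5.04 TPM in KO. Its log2 difference was -0.09 in litter 3 and -1.98 in litter 4. Hoxb5, a homeobox gene of long-lived stem cells, differed by -0.72 in litter 3 and -1.54 in litter 4. For Ly6a the KO libraries were the higher ones, at 304 and 266 TPM against 225 and 150 TPM in WT. Of 37 genes known to rise in aged stem cells, 20 were lower and 6 higher in KO in both litters. Among the 37, 6 were 2-fold lower in both, against 1.44% of all genes tested, and Mmrn1 and Fhl1 passed.

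Lymphoid-primed genes were more often higher, with 10 of 19 higher and 4 lower in KO in both litters (medians 0.16 and 0.33), and none passed. The member Ccr9 was lower in both, at 2.93 and 3.74 TPM in KO and 8.74 and 5.13 TPM in WT. The summed level of the list did not share a direction, at 3056 and 2708 TPM in KO and 3666 and 2636 TPM in WT. Irf8, a transcription factor of monocyte and dendritic cell development, measured 62.5 and 48.3 TPM in KO and 45.8 and 33.7 TPM in WT. Of 30 interferon response genes, 12 were higher and 10 lower in both litters, and Cxcl10 alone was 2-fold apart in both. Among 26 inflammatory genes, 6 were higher and 11 lower in both. Traf1, an adaptor of tumour necrosis factor receptors, was at 7.51 and 6.80 TPM in KO and 14.7 and 15.6 TPM in WT.

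Polycomb genes did not share a direction across the 2 complexes. Of 20 genes of Polycomb repressive complex 1, 12 were lower and 4 higher in KO in both litters, with medians of -0.07 in litter 3 and -0.56 in litter 4. Their median effective length was 2166 bases, and expressed genes of about that length (median 2178 bases) stood at -0.09 and -0.29. Of 11 genes of complex 2, which methylates histone H3, 4 were lower and 5 higher in both, with medians of 0.04 and -0.36. Ezh1, its methyltransferase in resting cells, measured 36.2 and 69.8 TPM in WT and 30.9 and 27.9 TPM in KO. Phf19, an accessory subunit, was at 6.46 and 8.17 TPM in WT and 3.88 and 3.52 TPM in KO. No member of either list passed or was 2-fold apart in both.

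Receptor and adhesion genes were counted next. Of 20 TGF-beta receptors and Smads, 12 were lower and 2 higher in both litters, with medians of -0.03 in litter 3 and -0.74 in litter 4. Tgfbr3, a co-receptor, measured 3.17 and 11.2 TPM in WT and 2.48 and 3.67 TPM in KO. Of 24 integrin and adhesion genes, 14 were lower and 2 higher in both litters. Among these 24, 3 were 2-fold lower in both, against 1.44% of all genes tested. The medians of the 24 were -0.14 in litter 3 and -0.85 in litter 4. Both lists hold long transcripts, with median effective lengths of 3174 bases for the first and 2975 for the second. Expressed genes of similar length (medians 2922 and 3490 bases) stood at -0.05 and -0.01 in litter 3 and at -0.64 and -0.83 in litter 4. The medians of both lists lie near these values. Jam3, a junction molecule of stem cells, was at 12.9 and 16.0 TPM in WT and 3.82 and 4.19 TPM in KO, with -1.68 and -1.89 in the 2 litters (edgeR adjusted p = 0.188). Itga9, an integrin chain, was at 6.13 and 12.5 TPM in WT and 3.89 and 3.57 TPM in KO. Of 22 cytokine receptors, 9 were lower and 3 higher in both, a share of lower members near that of the 9828 expressed genes. Ghr, the growth hormone receptor, was at 3.56 and 6.32 TPM in WT and 1.89 and 2.24 TPM in KO, while the angiopoietin receptor Tek differed by -0.03 in litter 3 and -1.85 in litter 4.

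None of the cell cycle genes passed. Of 25 mitosis genes, 10 were higher and none lower in KO in both litters (medians 0.23 and -0.07). Ube2c, which drives exit from mitosis, measured 413 and 294 TPM in KO and 301 and 213 TPM in WT. The kinase Cdk1 was at 381 and 366 TPM in KO and 336 and 271 TPM in WT. Of 25 replication genes, 14 were lower and 8 higher in both, with medians of -0.10 and -0.06. Tyms, which makes thymidylate, was at 428 and 485 TPM in KO and 355 and 263 TPM in WT, and Chaf1a, a histone chaperone, at 62.4 and 51.5 TPM in KO and 74.1 and 84.4 TPM in WT. Cdkn1c, the inhibitor that keeps stem cells at rest, measured 47.1 and 42.2 TPM in KO and 85.1 and 82.7 TPM in WT. Its groups did not overlap, and it did not pass (edgeR log2 -0.80, adjusted p = 0.477).

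Ribosomal protein and respiratory chain genes were mostly higher by small amounts. Of 45 ribosomal protein genes, 36 were higher and 1, Rps12, lower in KO in both litters, with medians of 0.48 and 0.39. Rpl24 measured 329 and 317 TPM in KO and 235 and 238 TPM in WT. Of 32 nuclear genes of the respiratory chain, 26 were higher and 1 lower in both, with medians of 0.41 and 0.39. Cycs, which encodes cytochrome c, was at 41.3 and 73.5 TPM in KO and 32.8 and 43.1 TPM in WT. No member of either list passed. Their transcripts are short, with median effective lengths of 480.8 and 499.5 bases against 1697 for all genes tested.

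**Figure D4:**
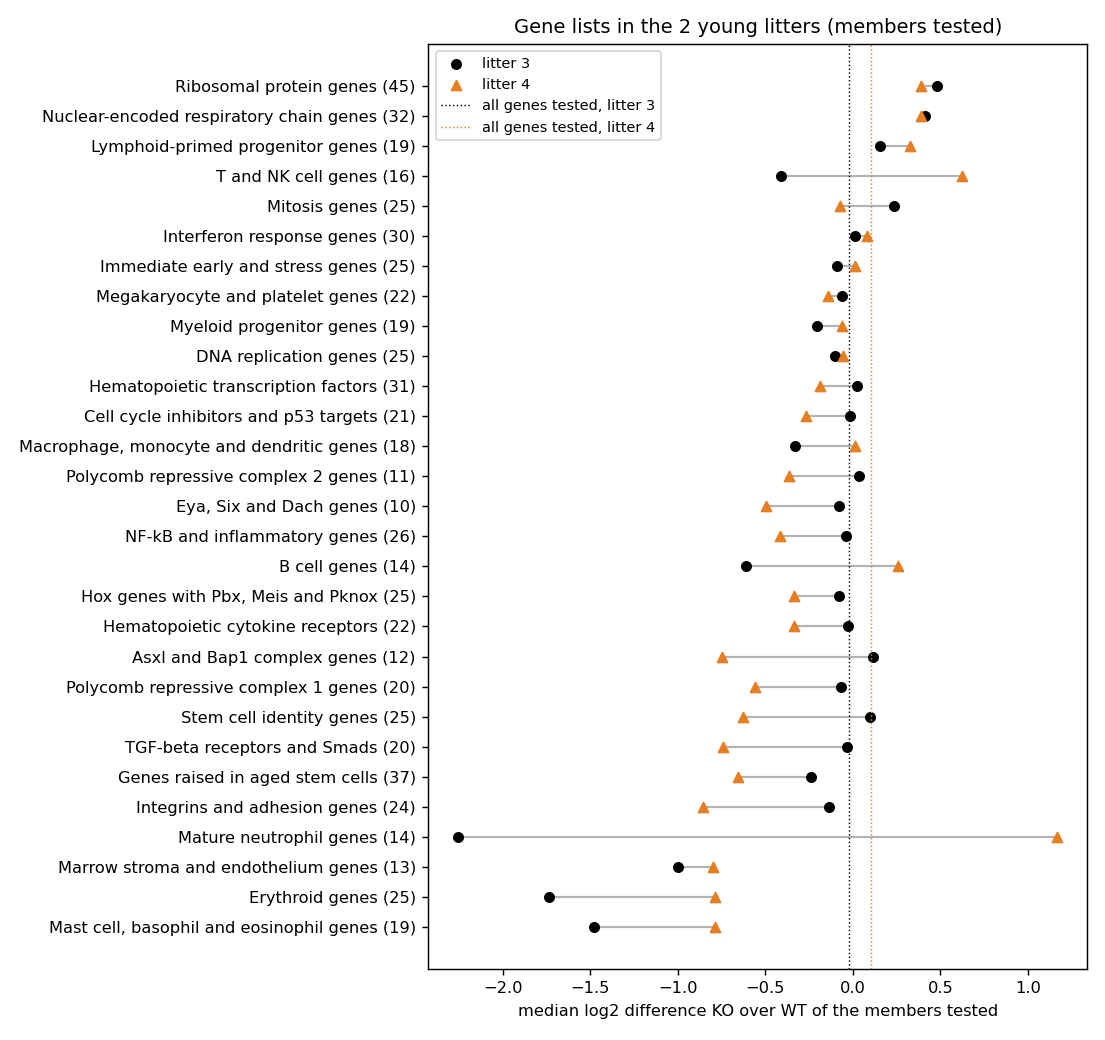
Median log2 difference KO over WT of 29 gene lists in litter 3 (black circles) and litter 4 (orange triangles), with the number of members tested. Dotted lines are the medians of all genes tested. Erythroid, mast cell and stroma lists lie between -1.73 and -0.79 in both litters, ribosomal and respiratory lists between 0.39 and 0.48, and neutrophil genes at -2.25 and 1.17.

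Transcript length moved with the differences, unequally in the 2 litters. Among the 9828 genes, the shortest 10% of transcripts, about 535.3 bases at their midpoint, stood at log2 0.29 in litter 3 and 0.30 in litter 4 (medians). For the longest 10%, at 4739 bases, the medians were 0.06 and -0.97. Across genes the Spearman correlation with length was -0.187 in litter 3 and -0.712 in litter 4. With length corrected, 11 genes passed, 9 of them among the 16, and the other 7 missed the threshold at log2 changes of similar size. Slamf1 and Cd68 were then called too (edgeR log2 1.61 and 1.35, adjusted p = 0.0272 and 0.0315). Gkn3 stood at 3.43 (edgeR adjusted p = 0.175), Gpx3 at -3.84 (0.107), Arhgap29 at -2.58 (0.0604) and Msrb3 at -1.81 (0.0604). Epb41l5 stood at -1.97 (0.205) and Col1a2 at -2.72 (0.147), and Ighv7-1 had an adjusted p of 0.0691. Of the 89 genes 2-fold apart in both litters, 70 remained among 80 found after the correction.

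**Figure D5:**
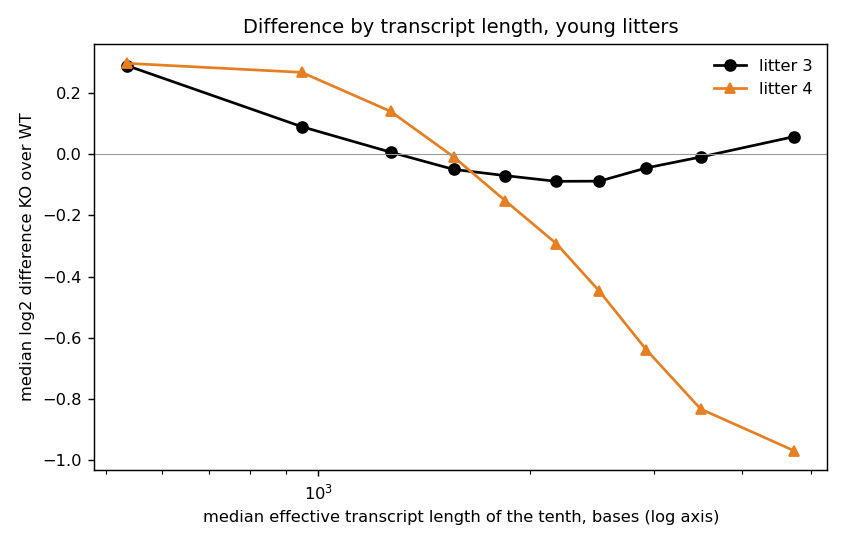
Median log2 difference KO over WT in 10 bins of named protein-coding genes of at least 5 TPM, ordered by effective transcript length (log axis, bases), in litter 3 (black) and litter 4 (orange). The line of litter 4 descends from 0.30 to -0.97, while that of litter 3 stays between -0.09 and 0.29.

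A group of 12 satellite repeat gene models, chosen after their values were seen, also moved with the genotype. They are predicted genes made of repeat sequence and not known coding genes. Their summed level was 5101 TPM in KO and 2193 TPM in WT of litter 3, and 1228 and 93.1 TPM in litter 4. All 12 were at least 2-fold higher in KO in both litters, which is a description of models chosen for their values, and none passed. In each litter KO was the higher library, and KO of litter 4 lay below WT of litter 3. Their part in the other differences was not tested.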

How the data were processed

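LSK RNA had been extracted with the RNeasy Micro kit and amplified with SMART-Seq v4, per the labels' protocols; the submitters' processing notes name kallisto, mm10 and DESeq2 without versions. The deposited tables hold, per the file headers, kallisto's estimated counts and TPM for 115088 transcripts in each of 8 libraries. GENCODE vM21 paired 114200 of these with 47311 genes, and the 888 others, 0.259% to 0.47% of a library's counts, were left out. Strand was not given in the sources used here, so antisense and near-identical genes are uncertain. Depth was 45737972 to 80388500 estimated counts a library. Between the 2 libraries of a group the chi-square per degree of freedom was 85.59 to 263.9, well above what counting alone gives. That value is over all genes, and scarce genes were not looked at apart.

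Transcripts' estimated counts were added up over each gene, then rounded to whole numbers. Genes passing edgeR's filterByExpr (minimum count 10, minimum total 15) were scaled by TMM and tested with edgeR 4.0.16 quasi-likelihood F tests (R 4.3.3) on all 8 libraries, with 4 groups and batch as terms, and Benjamini-Hochberg adjustment over 25543 genes at 0.05. The spread is shared with the old libraries. Within a litter, the log2 difference is of TMM-scaled CPM with a prior count of 2, with no test, and 1 (2-fold) was the call. The test was also run on simulated counts. These had a smaller spread than the data, whose common dispersion in edgeR was 0.1408, and no batch or litter effect. That check therefore cannot show how reliable the calls are here.

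The labels name a litter for each library, which pairs KO with WT. Across genes the deviations of littermates correlated at 0.12 in young mice (-0.455 with batch removed). Removing batch by itself pushes such correlations down, so the second value cannot show whether littermates vary together. Litter as a block was run too, because the labels give the pairs. Its adjusted p is given beside Asxl2, Pbx3, Mmrn1, Gkn3 and Ccl9, whose calls it ended. The calls it also ended were those of S1pr1, Fhl1, Chn2, Gpx3, Arhgap29, Msrb3, Epb41l5 and Col1a2.

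Named genes are Asxl2, Asxl1, Asxl3 and Bap1; up to 12 in each direction that passed, or were 2-fold apart in both litters, with at least 5 TPM; 5 in each direction most opposed between litters; and up to 2 at each end of 29 gene lists. Predicted models, Riken clones and antigen receptor segments were left out. The members, lists and rule were chosen with earlier results of these data known. Alternatives were DESeq2 1.42.0, limma 3.58.1 on log2(TPM + 1), DESeq2 size factors, no low-count filter, no batch term, a length correction (lowess span 0.3), young libraries only, single litters and each library left out. Promoters come from RefSeq (GRCm38.p6). Tables were handled in pandas 2.3.3 and numpy 2.4.6 under Python 3.11.15, and plots drawn in matplotlib 3.10.9.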

Additional observations from a re-analysis of the deposited data

Results flagged for a closer look

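The genotype by age interaction (young minus old) passed for 1 gene, the antibody heavy chain segment Ighv7-1, at -20.3 on the log2 scale (edgeR adjusted p = 0.0068). It measured 436 TPM in the young WT library of litter 3 and 0 in the other 3 young libraries, and 26.03 TPM in the old KO library of litter 1, so single libraries set both sides, and the fitted value against groups at 0 gives no bound on the fold.

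F13a1 was lower in KO in both young litters (-1.22 and -1.41; edgeR log2 -1.29) and higher in both old litters (0.96 and 1.55). Every litter of 1 age thus moved against every litter of the other, and the interaction did not pass (edgeR adjusted p = 1).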

How the results depend on the processing

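The count of 16 genes was 3 with litter as a replicate block, 5 (all lower) with the young libraries only and that block, 1 with the block and length correction together (added after seeing the data), and 0 with no batch term, with the young libraries only without the block (smallest adjusted p 0.0731, 716 genes at an unadjusted p under 0.05) and in limma on log2(TPM + 1). It was 421 without the filter (179 higher), 391 in DESeq2 (77 higher), 8 in litter 3 only and 1232 in litter 4 only; leaving out a library gave 0 to 1271. Length correction gave 3 higher and 8 lower of 11 against 2 and 14 of 16, and DESeq2 size factors 15.

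Asxl2 kept its direction and missed the threshold at -2.1972 in limma, -2.3117 with the replicate block, -2.3266 with no batch term, -2.2068 and -2.1994 with young libraries only (without and with the block), -1.9546 in litter 3 only and -2.0641 with block and length correction; without single libraries it was -2.57 to -2.02. Epb41l5 and Col1a2 also lost their calls without the old KO (0.0971 each) or old WT (0.0585 each) library of litter 1, in edgeR's adjusted p.

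The 1 interaction call became 75 without the filter, 7 in DESeq2, 0 in limma, with no batch term, with length correction and with both that and the block, and 0 to 27 without single libraries. The 1191 genes 2-fold apart in both litters (824 higher, 367 lower) were 615 with prior count 5, 143 on log2(TPM + 1), 2820 at 1.5-fold and 122 at 4-fold; the 89 of at least 5 TPM were 293 and 19 at those folds. Of 1515 values of single genes under an alternative, 1250 kept direction and side of the threshold, 146 lost a call, 111 gained one and 8 turned sign, none of them a called gene: Asxl1 at 0.1091 with length correction, 0.1089 with the block too, 0.3161 in litter 3 only and 0.0649 and 0.1924 without the young KO or WT library of litter 4 (-0.7437 to 0.1924 without single libraries); Kit at 0.2294 in litter 3 only and 0.045 without that WT library (-1.4292 to 0.045 without single libraries); and Tek at 0.003 in litter 3 only. Of 580 values of list medians 104 moved by more than the SD of the list's medians in the 2 litters. The cause of these changes was not tested. Arms left with 1 library are assumed to vary like the other groups. Genes of few counts, which the filter leaves out, are limited by depth.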
